A study of Mus musculus with 8 samples.

Results

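The genes described here are those whose products mark the 3 kinds of mammalian SWI/SNF complex. They are Arid1a, Arid1b, Dpf1, Dpf2 and Dpf3 for BAF, Arid2, Pbrm1, Brd7 and Phf10 for PBAF, and Brd9 for ncBAF. They were chosen by complex membership and number 10 of the 24631 gene names in the female and male tables. The RNA came from mouse germ cells of embryonic day 15.5 (E15.5), sorted from gonads by the Oct4-EGFP transgene, which all embryos carried. Libraries were made with SMART-Seq v4 and Nextera XT, and there were 8, of which each sex gave 2 from controls and 2 from Snf5 CKO embryos. CKO embryos were Snf5 fx/Δ with TNAP-Cre, where Cre is expressed from the Alpl locus in primordial germ cells. The controls were a mixture of Snf5 fx/+ and Snf5 fx/Δ without Cre and Snf5 fx/+ with TNAP-Cre, so some of them carried 1 intact allele or Cre. Recombination was incomplete by the study's account, so each CKO library held some cells that kept SNF5. The labels give the strain as C57BL/6, whereas the study's methods describe a mixed background. Cells of several embryos were pooled for the female and the male control libraries. CKO males were sorted singly, and the study lists 2 such sorts under its first male CKO sample and 1 under the other.

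SWI/SNF complexes use ATP to move nucleosomes, and mammalian cells assemble them in 3 forms that share an ATPase and several core subunits. BAF is defined by ARID1A or ARID1B with a DPF protein, PBAF by ARID2, PBRM1, BRD7 and PHF10, and ncBAF by BRD9. SMARCB1, the product of Snf5, belongs to BAF and PBAF and is absent from ncBAF. Values are FPKM (fragments scaled by transcript length and by the size of the library). Levels of different genes are set beside each other as a description only, because libraries of a group differed unlike by gene. In males, replicate 2 had 0.490 (control) and 0.647 (CKO) times the FPKM of replicate 1 for Arid1b, and 1.16 and 1.36 times for Dpf1. Changes are differences of log2(FPKM + 1), CKO minus control, with standard errors (SE) and adjusted p-values from limma over all genes tested in that sex, and a gene was called at an adjusted p under 0.05.

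The promoters of 3 members are shown because their genes differ in how they changed: Dpf2 was lower in CKO cells of both sexes, Dpf1 was called in males alone, and Brd7 was called in opposite directions. Each run is the 250 bases before the RefSeq start (GRCm38.p6), 5′ to 3′ on the gene's strand. They lie at chr19:5912872-5913121 on the minus strand for Dpf2, chr7:29303755-29304004 on the plus strand for Dpf1, and chr8:88362173-88362422 on the minus strand for Brd7. Capitals mark matches on either strand to GGGCGG (the GC box), CCAAT (the CCAAT box), TTTCCCGC or TTTGGCGC (E2F) and CACGTG (the E-box), and no match overlaps another in these 3 runs.
Dpf2: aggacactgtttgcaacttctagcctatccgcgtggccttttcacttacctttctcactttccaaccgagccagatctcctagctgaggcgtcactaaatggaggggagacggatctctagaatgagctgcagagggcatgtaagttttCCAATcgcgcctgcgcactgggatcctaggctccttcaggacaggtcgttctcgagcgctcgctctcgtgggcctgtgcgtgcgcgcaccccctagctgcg
Dpf1: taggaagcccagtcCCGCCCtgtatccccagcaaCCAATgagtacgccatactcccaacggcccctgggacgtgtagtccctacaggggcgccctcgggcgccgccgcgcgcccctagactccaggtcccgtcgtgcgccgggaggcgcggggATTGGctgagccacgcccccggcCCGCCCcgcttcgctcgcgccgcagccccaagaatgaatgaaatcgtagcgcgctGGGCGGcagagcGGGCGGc
Brd7: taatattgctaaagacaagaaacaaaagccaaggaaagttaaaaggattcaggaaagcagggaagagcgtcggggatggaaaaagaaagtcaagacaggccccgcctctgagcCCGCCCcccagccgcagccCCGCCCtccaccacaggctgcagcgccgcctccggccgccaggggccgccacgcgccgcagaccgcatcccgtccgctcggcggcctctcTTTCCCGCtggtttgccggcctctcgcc
The Dpf2 run held 1 CCAAT box and no GC box, with a GC content of 57.2% and 17 CpG. The Dpf1 run held 4 GC boxes and 2 CCAAT boxes, with 71.6% GC and 31 CpG. The Brd7 run held 2 GC boxes and 1 E2F match, with 64% GC and 22 CpG. Of 32851 RefSeq windows of this length, 32.7% held a GC box, 33.8% a CCAAT box, 1.3% an E2F match and 6.02% an E-box, and the medians were 52.4% GC and 6 CpG. Windows were found for 9 members, and Arid2 had none.

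The deleted gene was examined first. Smarcb1 (Snf5) measured 23.4 and 22.3 FPKM in female controls against 4.24 and 2.47 FPKM in CKO females (log2 change -2.48, adjusted p = 0.00029). In males it measured 141 and 167 FPKM in controls against 8.73 and 10.1 FPKM in CKO cells (log2 change -3.90, adjusted p = 0.0022). In both sexes the libraries labelled CKO lay below those labelled control. The FPKM covers the whole gene and not the deleted exon 1 alone. The FPKM of all loci summed to between 673741 and 1554760 per library, and loci with no gene name held 5.46% to 42.1% of that sum. Read totals are not given in the tables, so the depth behind a value is unknown. Germ cell markers summed to 1196 to 1274 FPKM in female controls and 2644 to 2846 FPKM in CKO females, with 3 of 5 called higher (Dppa3, Pou5f1 and Kit) and none lower. Dppa3 alone went from 41.2 and 61.3 to 1406 and 1633 FPKM, whereas Ddx4 (363 and 296 against 249 and 203 FPKM) and Dazl (771 and 888 against 630 and 631 FPKM) were lower in both CKO females without passing the test. In males these markers summed to 3423 to 3534 against 4235 to 4674 FPKM, with Kit called higher, Ddx4 called lower and the other 3 not called. Sertoli cell markers summed to 71.4 to 101.8 FPKM in male controls and 460 to 631 FPKM in CKO males, with 5 of the 6 tested and all 5 called higher and Fgf9 under 1 FPKM throughout. Leydig cell markers summed to 58.2 to 85.7 against 15.1 to 19.2 FPKM in males, with 3 of 5 called lower. In females Sertoli markers summed to 4.76 to 5.31 against 10.1 to 10.8 FPKM. Only Aard of these was tested, and it was called higher, at 2.72 and 4.35 against 9.63 and 10.3 FPKM, while Fgf9 had 1.87 and 0.710 against 0.104 and 0.124 FPKM and Sox9, Amh, Dhh and Cst9 were under 1 FPKM. Pre-granulosa markers summed to 7.46 to 9.77 against 18.5 to 19.6 FPKM in females, with 4 of 5 called higher and Bmp2 called lower (3.80 and 3.47 against 1.32 and 0.812 FPKM). The part of these markers in the results for the subunits was not tested. In these bulk samples more or fewer cells of a type cannot be told apart from more or less RNA per cell. The study also lists a purity for each sort, which was not set against these sums. The study placed the expression profiles of CKO cells of both sexes among those of younger normal germ cells. A difference of developmental stage therefore cannot be told apart from genotype here, and its part was not tested.

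In control females the members spanned a wide range of levels. Dpf2 was the highest at 111.9 ± 0.894 FPKM (SD, n = 2), followed by Brd7 at 85.6 ± 6.91 FPKM. Phf10 and Pbrm1 came next at 42.2 ± 2.79 and 40.7 ± 8.57 FPKM, and their libraries overlapped. Arid2, Arid1a, Brd9, Dpf1 and Arid1b followed, from 23.7 to 4.84 FPKM, each with libraries clear of the next, and Dpf3 was the lowest at 0.543 FPKM. The median tested locus of the female table had 14.2 FPKM, so BAF's ARID subunits lay near or below the middle of the table and Dpf2 and Brd7 well above it. In CKO females Brd7, Phf10 and Dpf2 shared the top, at 61.0, 58.9 and 56.2 FPKM, with overlapping libraries. Arid2 at 12.7 FPKM overlapped Brd9 at 10.9 FPKM, and Arid1b at 9.30 FPKM stood above Dpf1 at 6.16 FPKM.

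In control males Dpf2 again had the highest level, 61.6 ± 7.44 FPKM (SD, n = 2), with Brd7 at 34.1 ± 3.80 and Phf10 at 33.7 ± 3.08 FPKM next and overlapping. Pbrm1 at 17.2 FPKM overlapped Dpf1 at 13.8 FPKM, and Brd9 and Arid1a followed at 9.25 and 6.79 FPKM. Arid2 at 4.56 FPKM overlapped Arid1b at 2.76 FPKM, and Dpf3 was lowest at 1.30 FPKM. In CKO males Brd7 led at 56.8 FPKM, Phf10 and Dpf2 overlapped at 36.9 and 36.1 FPKM, and Arid1a reached 17.9 FPKM. Brd9, Arid2 and Arid1b, at 14.6, 14.3 and 10.4 FPKM, each overlapped the next in this order, and Dpf1 at 5.81 FPKM came below them. The orders are descriptions and were not tested. Overlap here sets the libraries of a group against each other as a whole, so genes that overlap may still keep their order within each library. In both CKO females, for example, Brd7 lay above Phf10 and Phf10 above Dpf2. Between control and CKO, 2 libraries against 2 cannot give a two-sided exact permutation p below 0.333.

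**Figure D1:**
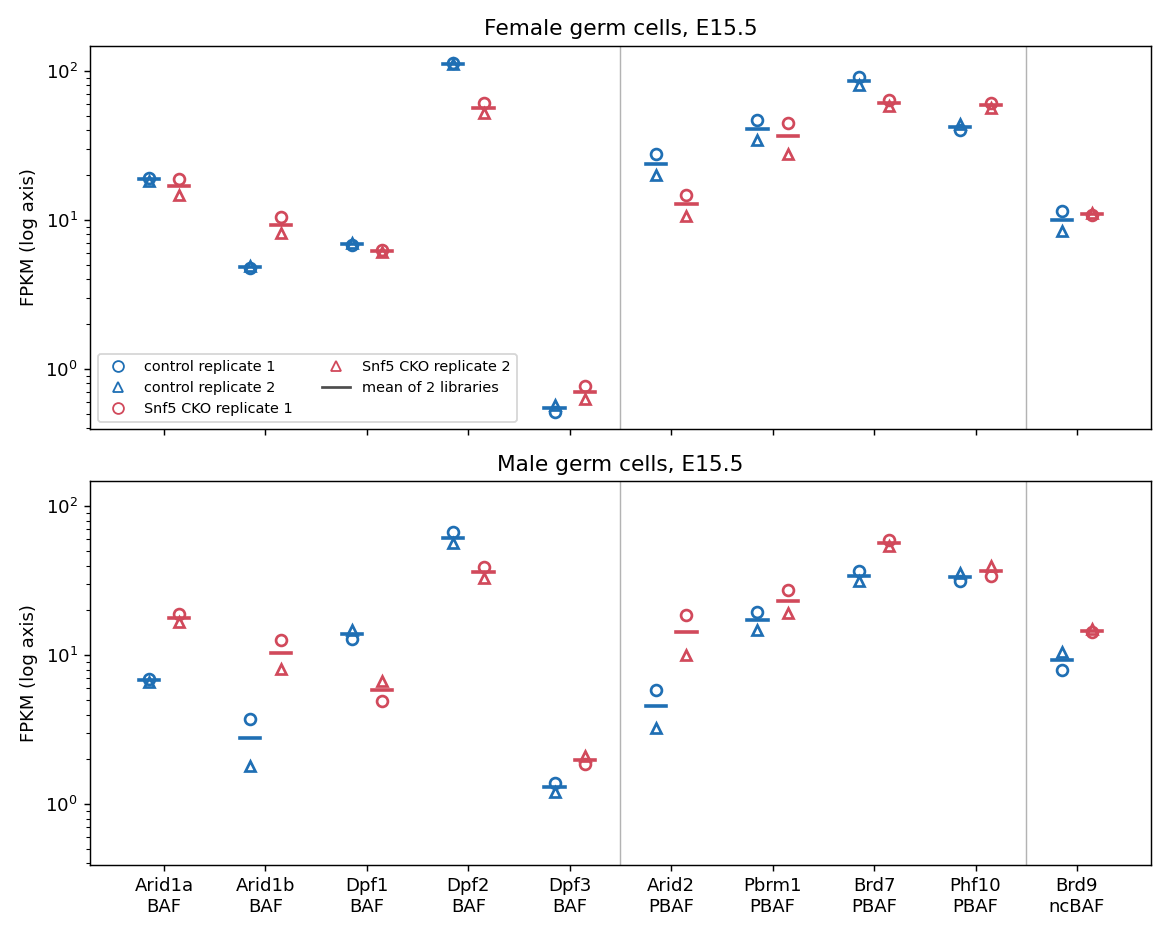
FPKM on a log axis of the 10 signature subunits in each of the 8 libraries, with females above and males below; circles are replicate 1, triangles replicate 2, blue is control, red is Snf5 CKO and bars are means of 2 libraries. Dpf2 had the highest mean in both control groups and lay lower in all 4 CKO libraries, while Arid1b lay higher in all 4.

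In females, 5 of the 9 tested members were called by limma, 3 lower and 2 higher, none with an absolute log2 change of at least 1. Over all 11642 loci tested in females 61.6% were called, 34.8% lower and 26.7% higher, and 39% were called with a change of at least that size. The members' share of 5 in 9 lay near the first of these. By complex, 2 of 4 tested BAF members, 3 of 4 PBAF members and 0 of 1 ncBAF member were called. The members' median log2 change was -0.16, beside -0.14 over all loci. In males, 6 of 10 members were called, 4 higher and 2 lower, against 46.2% of 12368 loci, of which 20.9% higher and 25.3% lower. Of these, 4 passed an absolute log2 change of at least 1 (3 higher and 1 lower), against 31.8% of all loci. By complex these were 4 of 5 BAF members, 2 of 4 PBAF members and 0 of 1 ncBAF member. The members' median log2 change was 0.52 in males, beside -0.07 over all loci. The groups' libraries did not overlap for 6 of 9 tested members in females and 8 of 10 in males, where 81.5% and 74.4% of all loci tested did not.

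Arid1a and Arid1b encode the alternative AT-rich interaction domain (ARID) subunits of BAF, which bind DNA. Arid1a (chr4:133679008-133757924 in the mm10 female table) measured 19.2 and 18.3 FPKM in control females and 18.9 and 14.8 FPKM in CKO females. These groups overlapped, and the log2 change of -0.16 (SE 0.19, adjusted p = 0.50) did not pass the test. In males Arid1a measured 6.93 and 6.66 FPKM in controls and 19.0 and 16.8 FPKM in CKO cells. Both CKO males lay above both controls, at 2.64 times their mean, a log2 change of 1.28 (SE 0.18, adjusted p = 0.0057). Over the alternatives that p ran from 0.00023 to 0.071, and it passed 0.05 with each library left out in turn but not with libraries rescaled to a common sum over named loci (0.071) or without moderation of variances (0.053).

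Arid1b (chr17:4994192-5347656 in the female table) measured 4.77 and 4.92 FPKM in control females and 10.5 and 8.10 FPKM in CKO females. It rose 1.92-fold, with a log2 change of 0.81 (SE 0.20, adjusted p = 0.012), and no control reached either CKO library. In control males it measured 3.71 and 1.82 FPKM and 12.6 and 8.15 FPKM in CKO males, the largest change among the members in males. Both CKO libraries lay above both controls, and the log2 change was 1.61 (SE 0.34, adjusted p = 0.017). Replicate 2 was the lower library of both male groups, at 0.490 times replicate 1 in controls and 0.647 times in CKO cells, and the CKO to control ratio was 3.40 within replicate 1 and 4.49 within replicate 2. The female call was lost without CKO replicate 1 (adjusted p = 0.090, range over all alternatives 0.0039 to 0.092), whereas the male call stood with each library left out.

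Dpf1, Dpf2 and Dpf3 encode the double PHD finger subunits of BAF, which read modified histone tails. Dpf2, whose promoter is shown above with no GC box, is transcribed from chr19:5896516-5912884 in the female table. It measured 112 and 111 FPKM in control females and 60.6 and 51.8 FPKM in CKO females. The controls lay far above the CKO libraries, and Dpf2 fell by 49.7%, a log2 change of -0.98 (SE 0.17, adjusted p = 0.0029), the largest change among the members in females. This call stood with each library left out (adjusted p 0.0050 to 0.012). In males Dpf2 measured 66.9 and 56.4 FPKM in controls and 39.2 and 32.9 FPKM in CKO cells. The groups did not overlap, and Dpf2 fell by 41.5% (log2 change -0.76, SE 0.19, adjusted p = 0.027). The male call was lost in each of the 4 fits that left out a library, with adjusted p from 0.058 to 0.16, and with either rescaling of the libraries (0.088 with a common sum, 0.055 with median of ratios, range over all alternatives 0.00025 to 0.16).

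Dpf1 (chr7:29303937-29317817 in the female table) is best known from neurons, where DPF1 replaces other subunits of its family. It measured 6.80 and 7.02 FPKM in control females and 6.26 and 6.06 FPKM in CKO females. The CKO libraries were lower, but the log2 change of -0.14 (SE 0.18, adjusted p = 0.51) did not pass the test. Male controls measured 12.8 and 14.8 FPKM and CKO males 4.92 and 6.71 FPKM. Both CKO libraries lay below both controls, and Dpf1 fell by 57.9% (log2 change -1.13, SE 0.22, adjusted p = 0.014), a call that stood with each library left out. Dpf3 measured 0.514 and 0.571 FPKM in control females and 0.766 and 0.628 FPKM in CKO females, under the mean of 1 FPKM needed for a test, and with no such filter its change was 0.14 (adjusted p = 0.32). In males it measured 1.38 and 1.21 FPKM in controls and 1.85 and 2.11 FPKM in CKO cells. The CKO males were the higher, but the log2 change of 0.38 (SE 0.17, adjusted p = 0.13) did not pass the test.

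**Figure D2:**
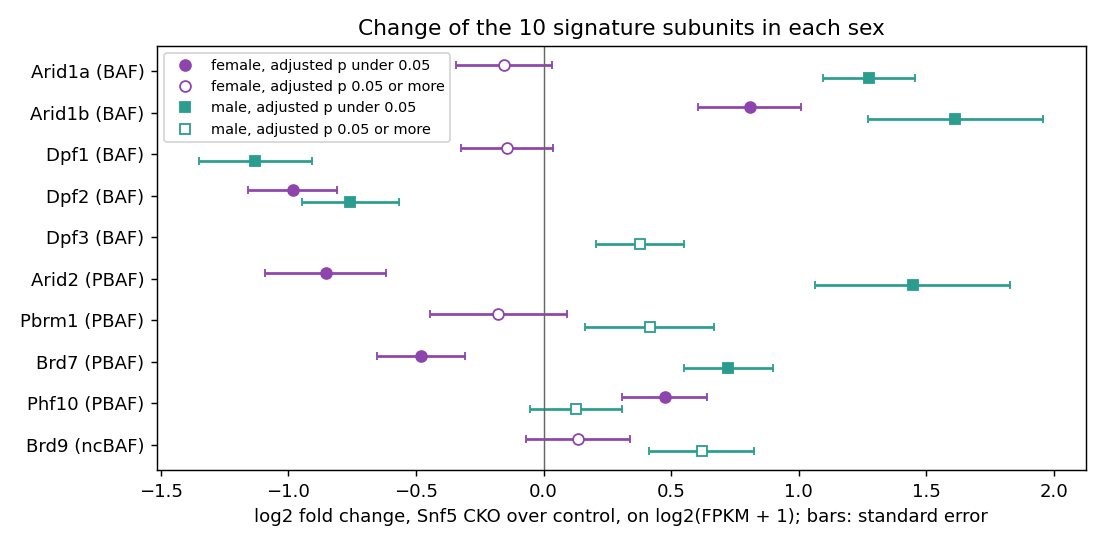
Log2 change of each signature subunit, CKO over control on log2(FPKM + 1), with females as purple circles and males as green squares, filled where the limma adjusted p is under 0.05; bars are standard errors. Dpf2 lies left of zero and Arid1b right of it in both sexes, and Arid2 and Brd7 lie on opposite sides (-0.85 and 1.45 for Arid2, -0.48 and 0.72 for Brd7). Dpf3 has no female point because it was not tested there.

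Arid2 encodes the ARID subunit of PBAF and lies at chr15:96285007-96405463 in the female table. It measured 27.6 and 19.9 FPKM in control females and 14.7 and 10.6 FPKM in CKO females. The groups did not overlap, and Arid2 fell by 46.6% (log2 change -0.85, SE 0.24, adjusted p = 0.018). Within replicate 1 and within replicate 2 the CKO library had 0.534 times the FPKM of its control. In males Arid2 measured 5.85 and 3.26 FPKM in controls and 18.7 and 10.0 FPKM in CKO cells. Both CKO males lay above both controls, with a log2 change of 1.45 (SE 0.38, adjusted p = 0.032), and the ratio was 3.19 within replicate 1 and 3.08 within replicate 2. The female call was lost without control replicate 1 (adjusted p = 0.076) and without CKO replicate 2 (0.063), within a range over the alternatives of 0.00064 to 0.17. The male call was lost without control replicate 2 and without CKO replicate 1 (0.061 each), with a common sum (0.056) and with no filter on low values (0.055), within a range of 0.00023 to 0.21.

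Brd7 encodes a bromodomain subunit of PBAF and lies at chr8:88332311-88362191 in both tables. It measured 90.4 and 80.7 FPKM in control females and 64.1 and 57.8 FPKM in CKO females. The controls were the higher, and Brd7 fell by 28.7% (log2 change -0.48, SE 0.17, adjusted p = 0.047). In males it measured 36.7 and 31.4 FPKM in controls and 59.0 and 54.6 FPKM in CKO cells, so that the CKO libraries were the higher. The male log2 change was 0.72 (SE 0.17, adjusted p = 0.024). Both calls were lost in each fit that left out a library (adjusted p 0.088 to 0.26 in females and 0.077 to 0.17 in males), with a common sum, at 0.16 in females and 0.34 in males, and without moderation (0.10 and 0.092). The female call was also lost with median of ratios (0.13), with no trend (0.057), with a pseudocount of 0.1 and with no filter on low values (0.050 each), so that 4 of 10 alternatives that used all libraries kept it.

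Phf10 encodes the double PHD finger subunit of PBAF and lies at chr17:14943184-14961260 in the female table. It measured 40.2 and 44.1 FPKM in control females and 61.1 and 56.8 FPKM in CKO females. Both CKO libraries were higher, and Phf10 rose 1.40-fold (log2 change 0.47, SE 0.17, adjusted p = 0.042). That call was lost in each fit that left out a library (adjusted p 0.091 to 0.21), with a common sum (0.13), with no trend (0.055) and without moderation (0.077). Control males had 31.5 and 35.8 FPKM and CKO males 33.9 and 39.9 FPKM, with overlapping groups and a log2 change of 0.13 (SE 0.18, adjusted p = 0.60). The Phf10 gene overlaps 1600012H06Rik on the opposite strand over 14562 bases, and because no source states that the libraries kept strand, reads of the 2 genes cannot be told apart there.

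Pbrm1 encodes polybromo, the PBAF subunit with a row of bromodomains, and lies at chr14:31019138-31128930 in the female table. It measured 46.7 and 34.6 FPKM in control females and 45.0 and 27.8 FPKM in CKO females. The groups overlapped, and the log2 change was -0.18 (SE 0.27, adjusted p = 0.59). In males it measured 19.6 and 14.7 FPKM in controls and 27.3 and 19.3 FPKM in CKO cells, also with overlap, and a log2 change of 0.42 (SE 0.25, adjusted p = 0.23). Blocking on the replicate number, the male change was called (0.0056, limma adjusted p, range over all alternatives 0.0056 to 0.74), since the CKO library had 1.39 and 1.32 times the FPKM of the control of its own number. Pbrm1 overlaps Smim4 and the edge of Gnl3 on the opposite strand over 33476 bases in all, with the same limit as for Phf10.

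Brd9 encodes the bromodomain subunit of ncBAF, the form that does not contain SMARCB1. It measured 11.4 and 8.45 FPKM in control females and 10.7 and 11.1 FPKM in CKO females. The groups overlapped, and the log2 change was 0.13 (SE 0.20, adjusted p = 0.59). In males it measured 7.999 and 10.5 FPKM in controls and 14.3 and 14.97 FPKM in CKO cells. Both CKO males lay above both controls, but the log2 change of 0.62 (SE 0.20) missed the threshold (adjusted p = 0.059). It passed in the fit blocked on replicate number (0.0049) and with median-of-ratios rescaling (0.032), within a range over the alternatives of 0.0049 to 0.48. The female locus is chr13:73937811-73960889. The male locus, chr13:73912462-73960895, reaches beyond the annotated gene, so its FPKM may hold reads from outside Brd9. Loci of some other members also reached past the annotated gene, though less far, among them Pbrm1 and Arid2 in females and Dpf3 in males. The same limit holds for them, and for the shares, ratios and sex differences that use any of these loci.

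The confidence bounds that the deposited tables give for each library were wide for all members. Their half-width ran from 69.0% to 166% of the FPKM, and the bounds of a control and a CKO library lay apart only for Arid1b in males. The bounds are those that the authors' quantification gave for each library, and no source shown states which spread they hold. The tests above use the spread between libraries.

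The difference between the sexes was tested as the male change minus the female change, each taken within its own table. Of 9 members tested in both sexes 4 were called, 3 with a higher change in males and 1 with a lower one, beside 45.3% of 10472 genes (23.5% higher and 21.8% lower). With a difference of at least 1 on the log2 scale 3 members passed, beside 36% of genes. Arid2 gave the largest difference, 2.30 (SE 0.50, adjusted p = 0.0084), with -0.85 in females and 1.45 in males. Arid1a followed with 1.43 (SE 0.24, adjusted p = 0.0029), and Brd7 with 1.21 (SE 0.21, adjusted p = 0.0038). Dpf1 differed the other way, by -0.98 (SE 0.26, adjusted p = 0.018). These 4 calls were lost when libraries were rescaled to a common sum over named loci, where the adjusted p ran from 0.056 to 0.14, and that of Arid2 was also lost without moderation of variances (0.057, range over its alternatives 2.4e-05 to 0.060). Sertoli markers, given above, were higher in CKO males, and their part in these differences was not tested. The differences of Arid1b (0.81, adjusted p = 0.15), Pbrm1 (0.59, 0.28), Brd9 (0.49, 0.19), Dpf2 (0.23, 0.46) and Phf10 (-0.35, 0.22) did not pass. With the replicate number as a block, Arid1b (0.0095), Pbrm1 (0.0055) and Phf10 (0.032) passed as well.

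**Figure D3:**
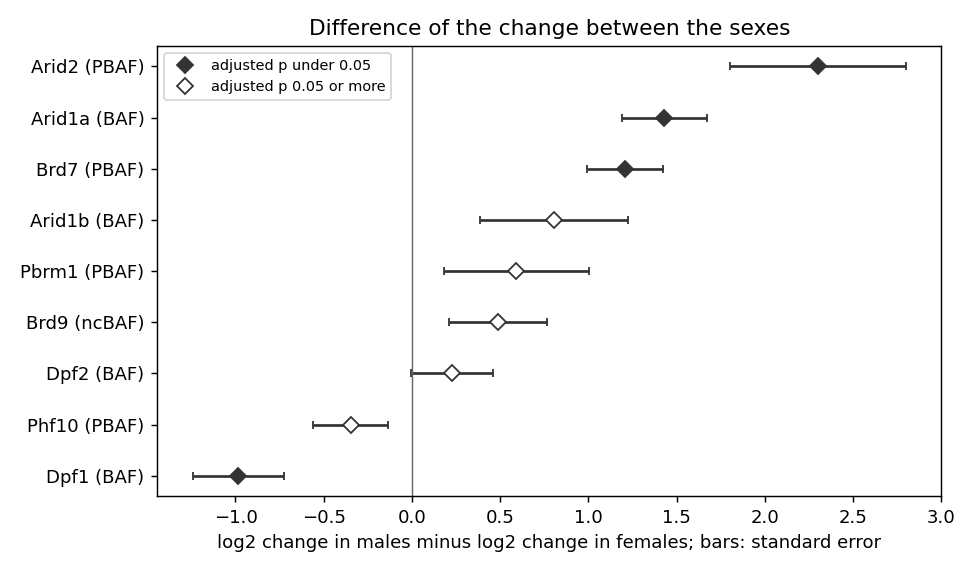
Male log2 change minus female log2 change of the 9 members tested in both sexes, with standard errors; filled diamonds have a limma adjusted p under 0.05. Arid2, Arid1a and Brd7 lie at 2.30, 1.43 and 1.21, and Dpf1 at -0.98.

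Because ARID subunits exclude each other within a complex, as double PHD finger subunits do, their shares of summed FPKM were described per library. A share does not change when a whole library is rescaled. Arid1b held 9.26% and 11.4% of ARID FPKM in control females and 23.8% and 24.2% in CKO females. Arid2 held 53.5% and 46.1% in control females and 33.3% and 31.8% in CKO females, so that the largest share passed to Arid1a, at 42.9% and 44.1%. The FPKM ratio of Arid1a to Arid1b was 4.02 and 3.73 in control females and 1.81 and 1.82 in CKO females. In males the ARID shares of the groups overlapped for Arid1a (42.0% and 56.7% against 37.8% and 48.0%) and for Arid2 (35.5% and 27.8% against 37.1% and 28.7%). Male Arid1b shares were 22.5% and 15.5% in controls and 25.1% and 23.3% in CKO cells. All 3 ARID genes were called higher in CKO males. The mean shares changed by 3.64, 13.6 and -17.3 percentage points for Arid1a, Arid1b and Arid2 in females and by -6.45, 5.19 and 1.26 in males, and the male values for Arid1a and Arid2 changed sign when single libraries were left out.

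Among double PHD finger subunits the shares moved from Dpf2 towards Phf10 in both sexes. Dpf2 held 70.3% and 68.3% in control females and 47.1% and 44.9% in CKO females. Phf10 held 25.1% and 27.1% in control females and 47.4% and 49.3% in CKO females. The groups did not overlap for either gene, and the ratio of Dpf2 to Phf10 went from 2.80 and 2.52 to 0.992 and 0.913. In males Dpf2 held 59.4% and 52.1% in controls and 49.1% and 40.3% in CKO cells, and Phf10 held 28.0% and 33.1% against 42.4% and 48.8%. The FPKM of Phf10 itself overlapped between the male groups (log2 change 0.13, limma adjusted p = 0.60). The limits given above for the Phf10 locus and its female call hold for these shares too. Dpf1 held 11.4% and 13.7% in control males and 6.16% and 8.22% in CKO males. In females its share was slightly higher in CKO cells, with 4.25% and 4.31% in controls against 4.86% and 5.25%. Brd9 held 11.2% and 9.49% of the FPKM of Brd7 and Brd9 in control females and 14.3% and 16.1% in CKO females, and in males the groups overlapped (17.9% and 25.1% against 19.5% and 21.5%). The ratio of Pbrm1 to Arid2, both of PBAF, was 1.69 and 1.74 in control females and 3.06 and 2.62 in CKO females, and 3.36 and 4.51 against 1.46 and 1.93 in males.

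**Figure D4:**
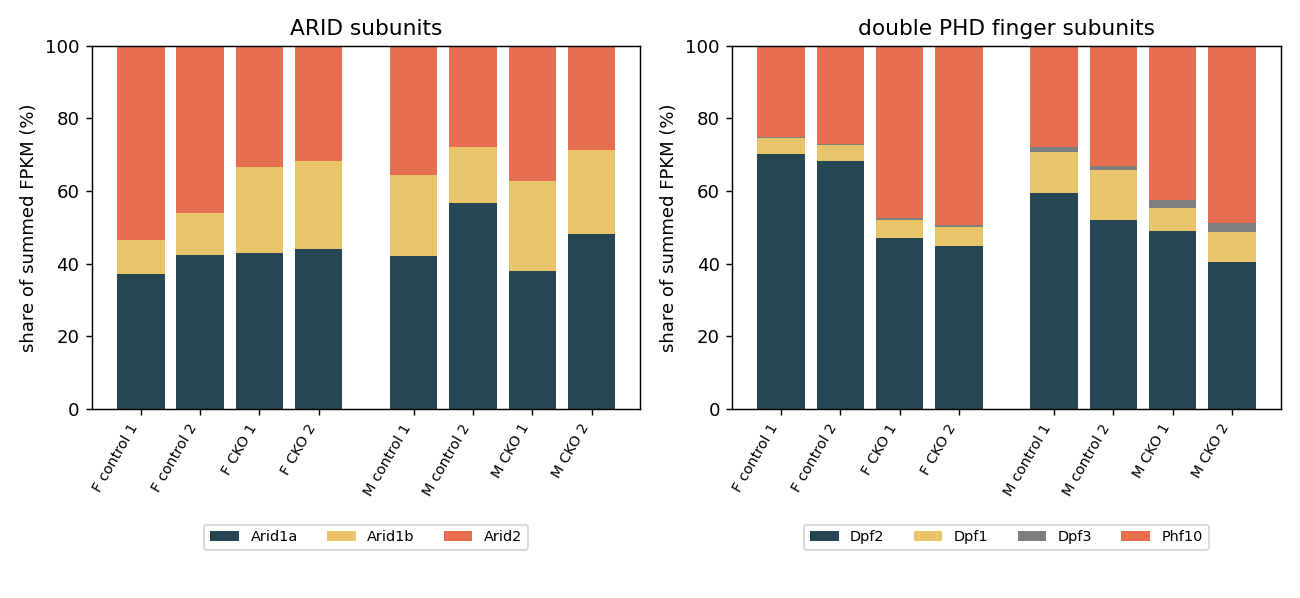
Share of summed FPKM (percent) in each of the 8 libraries, for the ARID subunits on the left and the double PHD finger subunits on the right; F is female, M is male and numbers are replicates. Phf10 rises from 25.1% and 27.1% to 47.4% and 49.3% in females, and Arid2 shrinks from 53.5% and 46.1% to 33.3% and 31.8%.

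The other SWI/SNF subunits, 21 genes for the ATPases and for further subunits beyond the members, were read in the same fits. In females 17 were tested and 11 called, 7 higher and 4 lower, 8 of them with an absolute log2 change of at least 1, and the median was 0.21. The share called was 64.7%, beside 61.6% of all loci. In males 19 were tested and 9 called, 3 higher and 6 lower, 7 of them past that size, and the median was -0.24. The share called was 47.4%, beside 46.2% of all loci. Besides Smarcb1, 5 were called in both sexes and in the same direction. Bcl7c, an accessory subunit, measured 6.39 and 12.2 FPKM in control females and 48.2 and 69.4 FPKM in CKO females, the largest change of the list in females (log2 change 2.58, adjusted p = 0.00066), and rose by 1.28 in males (adjusted p = 0.014). Ss18, a subunit of BAF and ncBAF, rose by 1.64 in females (adjusted p = 0.00040) and 1.53 in males (0.010). Actl6a, an actin-related subunit that Actl6b replaces in neurons, rose by 0.93 in females (adjusted p = 0.0037) and 1.45 in males (0.0057). Smarcd3 fell, with log2 changes of -1.18 in females (adjusted p = 0.0039) and -2.098 in males (0.0023). So did Ss18l1, a neuronal counterpart of Ss18, with log2 changes of -0.72 (adjusted p = 0.022) and -1.45 (0.0068). The largest male change of the list was that of Smarcb1 itself. The list also holds Gltscr1 and Gltscr1l, which encode subunits of ncBAF and are not among the members. Gltscr1 was called lower in males (log2 change -0.83, limma adjusted p = 0.016) and was not tested in females. Gltscr1l was called in neither sex.

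**Figure D5:**
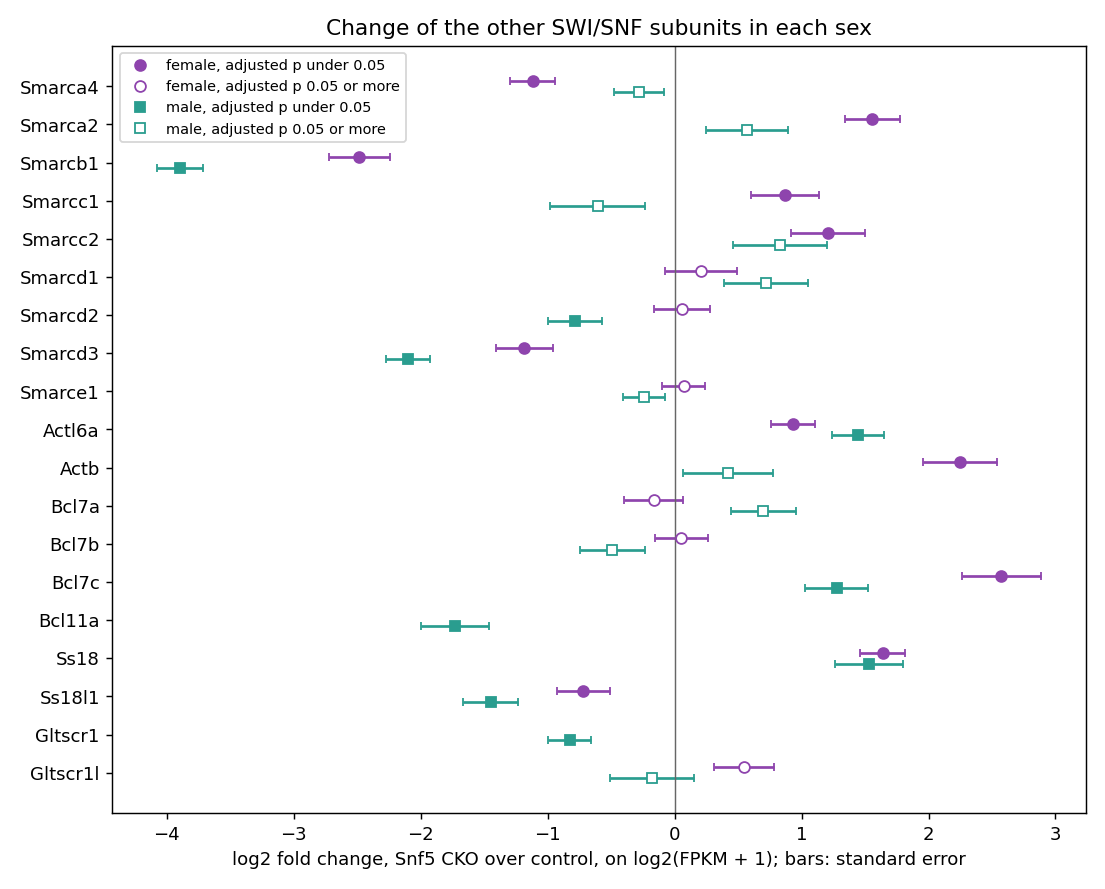
Log2 change of the 19 other SWI/SNF subunits tested in at least 1 sex, CKO over control, with females as purple circles and males as green squares, filled where the limma adjusted p is under 0.05; bars are standard errors. Smarcb1 lies farthest left at -2.48 and -3.90, and Bcl7c farthest right in females at 2.58.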

How the data were processed

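RNA-Seq of sorted E15.5 germ cells gave 8 libraries. The authors aligned reads to mm10 and deposited 1 table per sex with FPKM, confidence bounds and a status per locus. The submitters' processing notes name TopHat2 2.2.1 and Cuffdiff 2.1.1. FPKM were normalized by the authors within each table, so each sex was fitted alone and levels were not tested between tables. Log2(FPKM + 1) was fitted with limma 3.58.1 in R 4.3.3 (lmFit, eBayes with trend, two-sided, Benjamini-Hochberg) for the 11642 female and 12368 male named loci with a mean of at least 1 FPKM, without imputation. Fold changes on this scale understate the changes of low genes. Where several loci carried 1 name, the locus with the highest FPKM was taken for members. The sex difference was a limma contrast over genes passing in both tables. Nothing says whether replicates came from separate litters, so p-values measure the spread between these samples.

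Raw-file names in the labels follow 1 style for replicate 1 of all groups and another for replicate 2, and deviations of same-numbered libraries from their group means correlated (Pearson r across genes, which are not independent, 0.504 over 11642 loci in females and 0.595 over 12368 in males). The number was therefore taken as a possible pairing of the libraries. The deposited headers number the male libraries exp1 and exp2 in both groups, and the deposited data of both sexes are named Exp1_2. The female headers give a replicate number alone. No label says what libraries of the same experiment shared. The study compared the groups without a pairing, so the main fits were unpaired. The blocked fit was an alternative beside pseudocount 0.1, filters of 0 and of 5 FPKM on the mean, 2 rescalings and eBayes without trend. Further alternatives were no moderation, summed loci, loci of status OK, and each library left out. Named genes were all members, Smarcb1, and other subunits called in both sexes or with the largest change in a sex. Gltscr1 and Gltscr1l were named too, as subunits of ncBAF. The 3 genes most like the member with the largest change in each sex were also named. The members and lists were chosen with earlier results of these data known. The authors' quantification bounds were described and not tested. Promoter sequences were from RefSeq (GRCm38.p6).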

Additional observations from a re-analysis of the deposited data

Results flagged for a closer look

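The change from control to CKO differed between the sexes for 4 members in limma's interaction contrast over genes tested in both tables, where 45.3% of genes were called. For Arid2 the male minus female difference was 2.30 (adjusted p = 0.0084), with 2 of 2 CKO males above both controls and 2 of 2 CKO females below both. For Brd7 it was 1.21 (adjusted p = 0.0038), with the same arrangement of libraries. For Arid1a it was 1.43 (adjusted p = 0.0029), with both CKO males above both controls and overlapping libraries in females. For Dpf1 it was -0.98 (adjusted p = 0.018), with both CKO libraries below both controls in each sex. Groups of 2 libraries were too small for a test of single outlying libraries.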

How the results depend on the processing

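Of the 5 female calls among members, a common sum over named loci left 3, eBayes without a trend 3 and no moderation 0 (5 at an unadjusted p under 0.05). Of the 6 male calls a common sum left 2 and no moderation 0 (5 unadjusted). Of the 4 male calls past an absolute log2 change of 1 these left 2 and 0. Leaving out a library also lost member calls in both sexes, given above by gene. With a library left out, female log2 changes reached -1.10 for Dpf2 and -1.08 for Arid2. With no moderation, other subunits went from 11 to 3 in females (8 to 2 past that size) and from 9 to 2 in males (7 to 2). The sex difference went from 4 calls to 0 with a common sum (3 unadjusted, limma), and from 3 to 0 past that size, and no moderation kept 3 of the 4. The replicate block gave 18 calls among other subunits in males and 7 sex differences, and it changed no member's call beyond those given above. The share of all loci called moved as well, from 61.6% of female and 46.2% of male loci in the main fits. With a common sum 54.3% of female and 33.4% of male loci were called, and without a trend 61.3% of female loci. Without moderation 20.8% of female and 6.78% of male loci were called, and with the block 76.6% and 76.1%.

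Log2 changes that turned belonged to members not called. Under median of ratios the female changes became 0.00997 for Arid1a and 0.00742 for Dpf1, and under a common sum the male Phf10 change became -0.0582. Leaving out a library gave female changes of -0.33 to 0.0148 for Arid1a (positive without CKO replicate 2), -0.51 to 0.16 for Pbrm1 (positive without control replicate 1 or CKO replicate 2) and -0.0625 to 0.33 for Brd9 (negative without control replicate 2). Male share differences also turned, for Arid1a and Arid2 although both genes were called in males. These differences, CKO minus control in percentage points, ranged from -13.8 to 0.917 for Arid1a (-6.45 with all libraries, positive without control replicate 2), from -2.98 to 5.50 for Arid2 (1.26, negative without control replicate 2 or CKO replicate 1) and from -4.56 to 2.62 for Brd9 (-0.969, positive without control replicate 2 or CKO replicate 1). The cause was not tested. Median of ratios moved the median change of all genes by 0.16 in females and 0.15 in males, and a common sum moved it by -0.19 in males, where 34.0% of calls were then higher instead of 45.3%. With 2 libraries a group, small changes may have been missed.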

Other observations

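Genes were ranked by how closely their log2(FPKM + 1) followed a member over the 4 libraries of a sex, as a description with no test. Each gene was centred on its own mean over those libraries. Nearest to Dpf2 in females was Lrrc45 (root mean square difference 0.0149), at 28.4 and 28.1 FPKM in controls and 14.8 and 12.9 FPKM in CKO cells, followed by Fam129b (0.0219) and Mtfr1l (0.0234). Nearest to Arid1b in males was Prdm1 (0.0492), which encodes a transcriptional repressor needed for germ cell specification, at 10.6 and 6.24 FPKM in controls and 30.8 and 21.0 FPKM in CKO cells. Nfx1 (0.0584) and Nedd9 (0.0609) followed.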
